A study of Equus caballus with 45 samples.

Results

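Transcripts of chemokines that recruit neutrophils, monocytes and other leukocytes were followed in cultured horse cells, from bulk RNA sequencing. The list held 9 genes (CXCL6, CXCL8, CCL20, CCL2, CCL8, CCL11, CCL5, CXCL12 and CX3CL1), and its members were the rows of the deposited gene tables whose symbol was one of these names. Of these, 8 were matched among 20881 protein-coding genes, and CX3CL1, which matched no row by symbol, was not analysed here. The genes were taken by name and not by a limit on a measured value, but with earlier results of these data known.

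Chemokines are small secreted proteins that guide leukocytes along a gradient by binding G protein-coupled receptors. CXCL8 (interleukin-8) and CXCL6 carry a glutamate-leucine-arginine motif and attract neutrophils, CCL2 and CCL8 attract monocytes, CCL5 attracts T cells and monocytes, CCL11 attracts eosinophils, CCL20 attracts cells that carry CCR6, and CXCL12 is a homeostatic chemokine of stroma and bone marrow that acts through CXCR4 and is bound by the scavenging receptor ACKR3. In an inflamed joint, interleukin-1β (IL-1β) and tumour necrosis factor-α (TNF-α) act on synovial lining cells and chondrocytes through nuclear factor kappa B (NF-kB), which drives several of these genes.

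The study asked how conditioned medium from activated mesenchymal stromal cells (MSC) acts on inflamed joint cells. Bone marrow MSC of 3 donor horses (labelled PC, 99 and 92) were left untreated or received the Toll-like receptor 3 (TLR3) agonist poly I:C, 2′3′-cGAMP, which activates the STING pathway, or an addition labelled only CPG, with 1 library per donor in each of these 4 groups. The MSC donors were 3 to 4 years old. The agonists were present for 2 h, at 10 ng/mL by the sample protocols and 10 µg/mL by the series description. Synoviocytes, chondrocytes and macrophages, the last grown from blood monocytes, were the responding cells, and the study's methods describe a single healthy donor horse for the joint cells without saying whether the cell types share it. In each joint cell type 9 libraries came from cells that received IL-1β and TNF-α together with medium of untreated MSC (resting MSC-CM), TLR3-activated MSC (TLR-MSC-CM) or STING-activated MSC (STING-MSC-CM), and the 3 libraries of a medium group differed in the MSC donor (PC, ORC or AG1). Of these donors, PC is the one with MSC libraries analysed here. A further library had the cytokines alone and another had no addition. These single libraries also carry such a name (ORC or PC) in their labels although no MSC medium is described for them, so the reading of the names is uncertain. They were used as libraries without medium. The cytokines were given at 20 ng/mL to synoviocytes and, by the sample protocols, at 10 ng/mL to macrophages (20 ng/mL by the study's methods). For chondrocytes the sample records give no cytokine dose, and the study's methods describe the same treatment as for synoviocytes. By those methods the cells were cultured for 24 h after cytokines and MSC-CM were given. The study's abstract instead gives 2 h of cytokines and a wash before 24 h with MSC-CM. By the study's methods the cells then spent a further day in fresh medium before lysis. With the names read as MSC donors, the replicates of a joint cell type share their cells, so every p-value in joint cells measures the spread between MSC donors' media. If the cell types came from different horses, cell type and horse cannot be told apart.

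Libraries held 23525704 to 54103873 counts, so that 3 counts, taken as the detection floor, corresponded to 0.0562 to 0.127 counts per 1000000 (CPM) in joint cells and 0.0602 to 0.1 CPM in MSC. The chondrocytes expressed COL2A1, which encodes cartilage collagen, at 0 to 0.383 CPM and ACAN at 6.07 to 97.2 CPM, so that the defining cartilage collagen was near absent. The macrophages expressed 12 macrophage markers at a summed 9497 to 14510 CPM, against at most 38.6 CPM in synoviocytes and chondrocytes. They also held T cell markers at 250 to 423 CPM against at most 0.0728 CPM in all other cells. The 3 neutrophil markers found by symbol (CSF3R, MPO and ELANE) summed to 269 to 580 CPM in macrophages, against at most 0.482 CPM in all other cells. The part of such cells in the chemokine levels was not tested. In the chondrocytes, the 3 libraries with donor ORC medium stood apart from the other 6 medium libraries. In MSC, the interferon-induced gene MX1 lay at 3.64 CPM in the library labelled poly I:C of donor 92, against 6.85 CPM in that donor's untreated library and 519 and 633 CPM in the poly I:C libraries of donors 99 and PC. Several of the tests that rest on these libraries are given with and without them. In bulk RNA, fewer cells of a type and less RNA per cell cannot be told apart.

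CXCL6, a neutrophil chemokine, was expressed by all 3 joint cell types given the cytokines. With resting MSC-CM it lay at 5595 CPM (medium of donor ORC), 6020 CPM (AG1) and 6637 CPM (PC) in synoviocytes, at 7505 CPM (ORC), 23859 CPM (AG1) and 25257 CPM (PC) in chondrocytes, and at 2817 CPM (ORC), 2847 CPM (AG1) and 930 CPM (PC) in macrophages. The 3 groups did not overlap, with chondrocytes above synoviocytes and synoviocytes above macrophages. In untreated MSC it lay at 7.06 CPM (PC), 16.01 CPM (99) and 41.3 CPM (92). The MSC were tabulated and scaled apart from the joint cells, so a level in MSC is set beside the others without a test.

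CXCL8, the main human neutrophil chemokine, had another order of cell types. With resting MSC-CM it lay at 3126 CPM (PC), 6626 CPM (ORC) and 8584 CPM (AG1) in macrophages, at 44.0 CPM (ORC), 1414 CPM (AG1) and 1772 CPM (PC) in chondrocytes and at 12.6 CPM (AG1), 16.5 CPM (ORC) and 18.4 CPM (PC) in synoviocytes. Macrophages lay above chondrocytes and chondrocytes above synoviocytes without overlap, although the chondrocyte library with ORC medium was closer to the synoviocytes than to the other 2 chondrocyte libraries. MSC held 0 to 46 counts of CXCL8 per library, that is at most 0.961 CPM.

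CCL20 was a chemokine of the chondrocytes and synoviocytes. With resting MSC-CM, chondrocytes held 27.7 CPM (ORC), 604 CPM (AG1) and 711 CPM (PC) and synoviocytes 44.7 CPM (ORC), 69.9 CPM (AG1) and 77.8 CPM (PC), so that the ORC chondrocyte library fell below all 3 synoviocyte libraries and the groups overlapped. Macrophages lay at 0.316 to 1.34 CPM over all 11 libraries, from 8 to 56 counts, and untreated MSC at 1.55 to 9.95 CPM.

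The monocyte chemokines CCL2 and CCL8 were highest in macrophages. CCL2 lay at 5712 CPM (PC), 6846 CPM (AG1) and 8621 CPM (ORC) in macrophages with resting MSC-CM, at 144 to 273 CPM in chondrocytes and at 116 to 198 CPM in synoviocytes, where the last 2 groups overlapped. Untreated MSC held 399 CPM (PC), 397 CPM (99) and 46.2 CPM (92). CCL8 lay at 4043 to 6395 CPM in all 11 macrophage libraries, and the other cells held 0 to 2 (MSC), 0 to 4 (synoviocytes) and 0 to 10 counts (chondrocytes) per library, so that no fold change is given against them. CCL2, CCL8 and CCL11 are related genes of one chromosomal cluster, and how reads shared between them were assigned was not tested. The counts of CCL11 were 8.71 to 15.53% of those of CCL2 in macrophages and 2.48 to 8.995% in synoviocytes.

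CCL11 (eotaxin) and CCL5 (RANTES) were likewise highest in macrophages. In macrophages with resting MSC-CM, CCL11 lay at 522 to 797 CPM and CCL5 at 2130 to 2859 CPM. Chondrocytes held CCL11 at 8.30 (ORC), 23.7 (PC) and 26.3 CPM (AG1), and synoviocytes at 8.55 to 10.4 CPM, so that the ORC chondrocyte library lay below the synoviocytes and the other 2 above. For CCL5 the chondrocytes (6.41 to 23.6 CPM) and the synoviocytes (10.6 to 17.3 CPM) overlapped. Macrophages stood apart from both synoviocytes and chondrocytes for each of these genes.

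CXCL12 ran the other way. Synoviocytes with resting MSC-CM held 23.4 to 26.5 CPM, chondrocytes 5.87 (AG1), 7.07 (PC) and 14.3 CPM (ORC), and macrophages 0.486 to 1.36 CPM, with no overlap between the groups. Untreated MSC lay at 1.34 CPM (92), 5.59 CPM (PC) and 16.7 CPM (99).

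**Figure D1:**
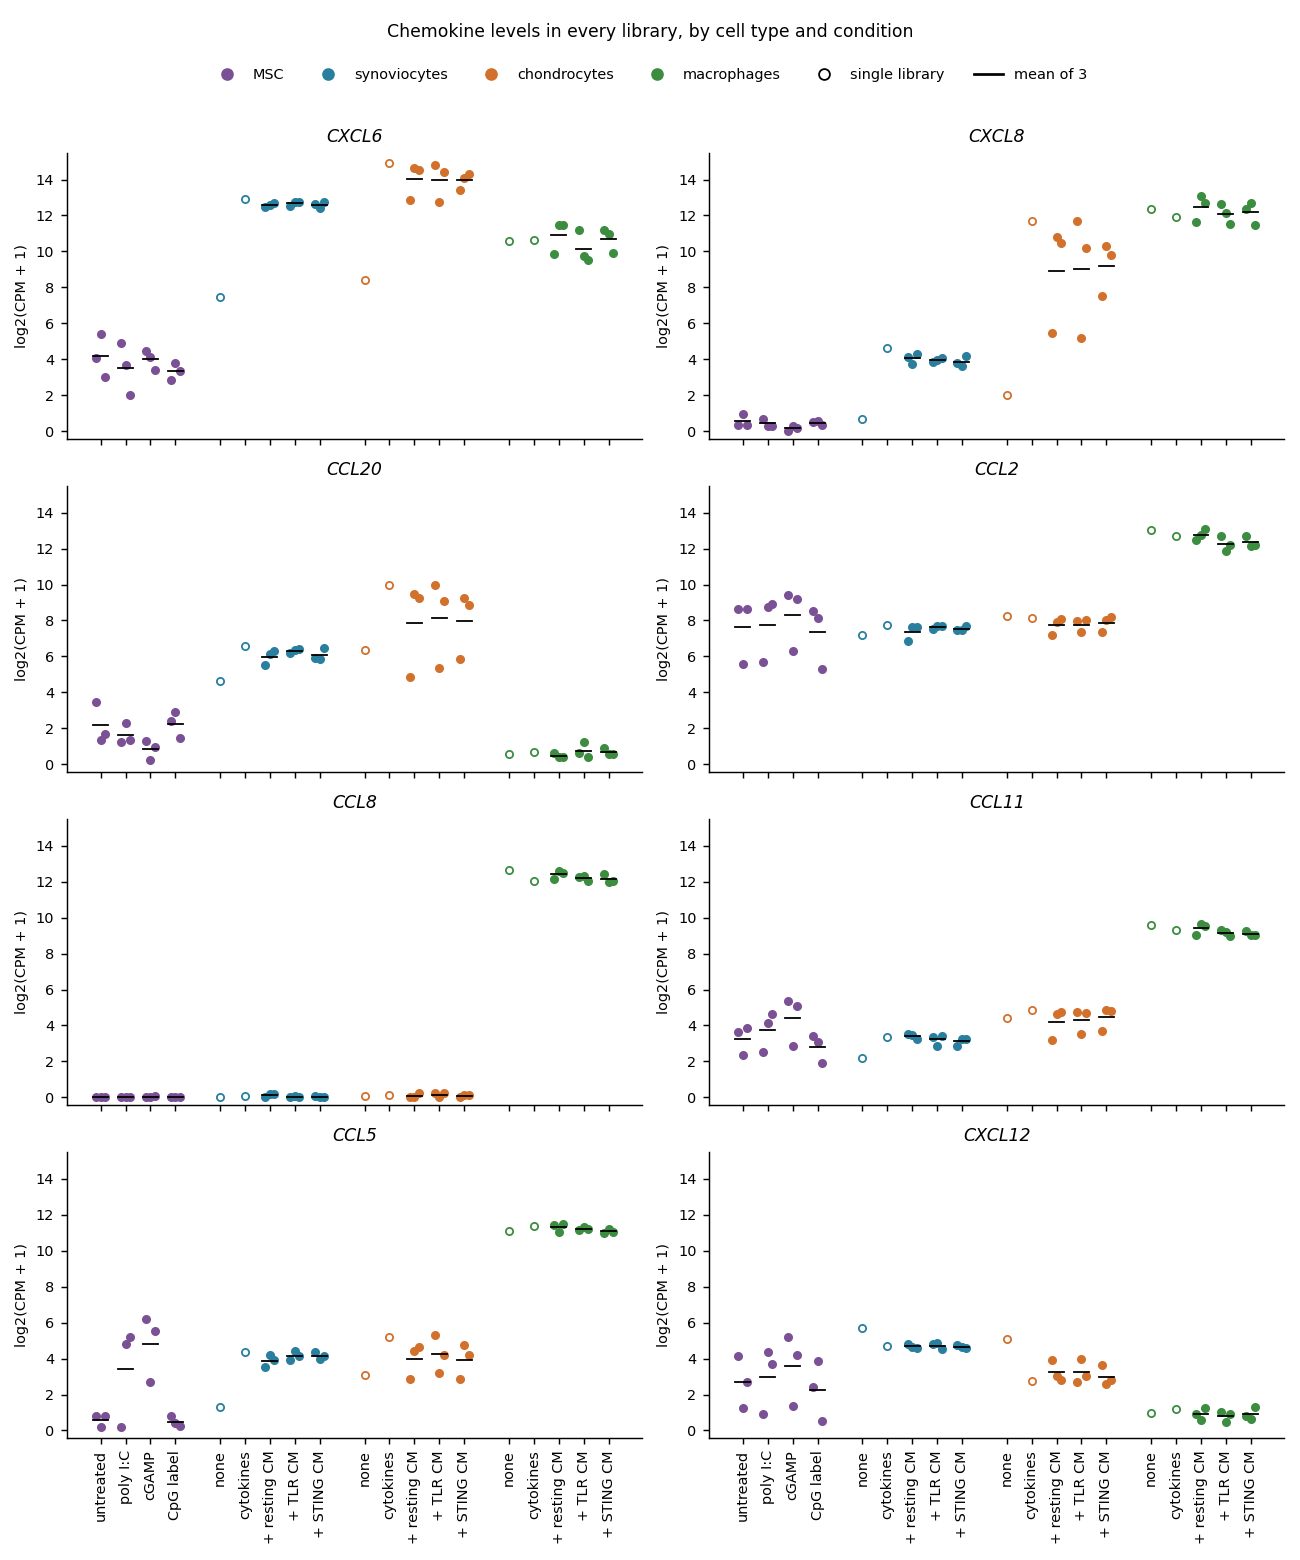
CPM of the 8 chemokines in every library, on a log2(CPM + 1) axis, by cell type and condition; filled points are libraries of a replicated group, bars are their means (n = 3) and open circles are single libraries. CCL2, CCL8, CCL11 and CCL5 are highest in macrophages and CXCL6 and CCL20 in chondrocytes. CXCL12 is highest in the no-addition library of synoviocytes and, among chondrocytes, in their no-addition library. The MSC library of donor 99 with the STING agonist (35.4 CPM) lies above the synoviocyte medium libraries (21.7 to 28.2 CPM) for CXCL12. Within the chondrocytes, 1 point of each medium group lies apart in most panels.

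Between cell types with resting MSC-CM, edgeR's quasi-likelihood test called 4 of the 8 members different between chondrocytes and synoviocytes at an adjusted p under 0.05, while it called 18.1% of all genes tested. CXCL8 was higher in chondrocytes by 6.08 on the log2 scale (SE 1.08, edgeR adjusted p = 0.00314), CCL20 by 2.79 (SE 0.81, adjusted p = 0.0381) and CXCL6 by 1.62 (SE 0.48, adjusted p = 0.0422). CXCL12 was lower in chondrocytes, with a log2 difference of -1.45 (SE 0.33, edgeR adjusted p = 0.0127). CCL11 had a difference of 1.00 that missed the threshold (edgeR adjusted p = 0.0723). With the MSC donor as a block, edgeR called 19.4% of all genes and 2 members, CXCL8 (adjusted p = 0.0124) and CXCL12 (adjusted p = 0.0022), while CCL20 (adjusted p = 0.087) and CXCL6 (adjusted p = 0.0736) were no longer called, and DESeq2 called 22.5% of all genes and 5 members, with CCL11 as the fifth.

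The ORC medium library weighed on these differences. Without it in the chondrocytes, 6 members were called, the difference of CXCL8 was 6.64, of CCL20 3.35 and of CXCL6 2.00, and CCL11 (1.36, edgeR adjusted p = 2.98e-04) and CCL5 (0.64, adjusted p = 0.0387) passed as well. Leaving out a library in turn otherwise left 1 or 2 members called: 2 without chondrocyte AG1 or without any 1 of the synoviocyte libraries and 1 without chondrocyte PC. The number of all genes called also moved with the library left out (its range is given under the processing). These member counts are therefore not a result about the chemokines alone. By overlap alone, CXCL6, CXCL8 and CXCL12 had chondrocyte and synoviocyte libraries that did not overlap, a property of 37.5% of genes in this pair of groups.

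Against synoviocytes and against chondrocytes, macrophages differed in 8 of 8 members, where edgeR called 71.6% and 71.5% of all genes, so that most genes, members or not, differed between these cells. Macrophages were higher than synoviocytes in CXCL8 by 8.59 on the log2 scale, in CCL5 by 7.51, in CCL11 by 6.15 and in CCL2 by 5.37, and lower in CCL20 by a difference of -7.28, in CXCL12 by -4.84 and in CXCL6 by -1.47. Against chondrocytes the differences were 7.25 for CCL5, 5.15 for CCL11, 5.01 for CCL2, 2.51 for CXCL8, -10.07 for CCL20, -3.39 for CXCL12 and -3.10 for CXCL6. The smallest of these calls rested on single libraries: CXCL8 against chondrocytes (edgeR adjusted p = 0.0293) was lost without macrophage AG1 (0.0737) or ORC (0.0557) or chondrocyte AG1 (0.0509), and CXCL6 against synoviocytes (edgeR adjusted p = 0.0182) was lost without macrophage PC (0.0514).

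The cytokines alone were compared with no addition in 1 library each, so there is no replicate check and no test between conditions, and the intervals cover counting error only. In chondrocytes, CXCL8 lay at 3279 CPM with the cytokines and 3.04 CPM without, a ratio of 1078 (95% counting interval 869 to 1356). CXCL6 lay at 30829 against 340 CPM, a ratio of 90.7, CCL20 at 995 against 82.1 CPM, a ratio of 12.1, and CCL5 at 35.6 against 7.64 CPM, a ratio of 4.67. The neutrophil chemokines thus had the widest gaps among the members in this pair of libraries. CCL11 and CCL2 had ratios of 1.36 and 0.919, and CXCL12 was 5.70 times lower with the cytokines, at 5.74 against 32.7 CPM.

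In synoviocytes CXCL6 lay at 7843 CPM with the cytokines and 179 CPM without, a ratio of 43.9 (95% counting interval 42.8 to 45.1), and CXCL8 at 23.7 against 0.578 CPM, a ratio of 40.9 (25.7 to 69.5). CCL5 had a ratio of 13.2, CCL20 of 3.98, CCL11 of 2.61 and CCL2 of 1.51, and CXCL12 was 2.05 times lower with the cytokines, at 24.5 against 50.1 CPM. At a 2-fold limit, 5 of 7 members were higher and 1 lower in synoviocytes, against 1.8% and 1.21% of all genes, and 4 of 7 were higher and 1 lower in chondrocytes, against 3.89% and 3.71%. In both cell types the direction of CXCL12 was opposite to that of the neutrophil chemokines.

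Macrophages held these transcripts with or without added cytokine. CXCL8 lay at 5274 CPM with no addition and 3864 CPM with the cytokines, CCL2 at 8469 and 6659 CPM, CCL8 at 6395 and 4183 CPM, CXCL6 at 1519 and 1592 CPM and CCL5 at 2183 and 2677 CPM. None of 8 members passed the 2-fold limit in either direction in macrophages, where 0.0484% of all genes were higher and 0.0323% lower by that much. IL6, a cytokine used here as a check of the addition, lay at 63.6 CPM with and 97.5 CPM without the cytokines in macrophages, at 4542 and 199 CPM in chondrocytes and at 1377 and 264 CPM in synoviocytes.

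**Figure D2:**
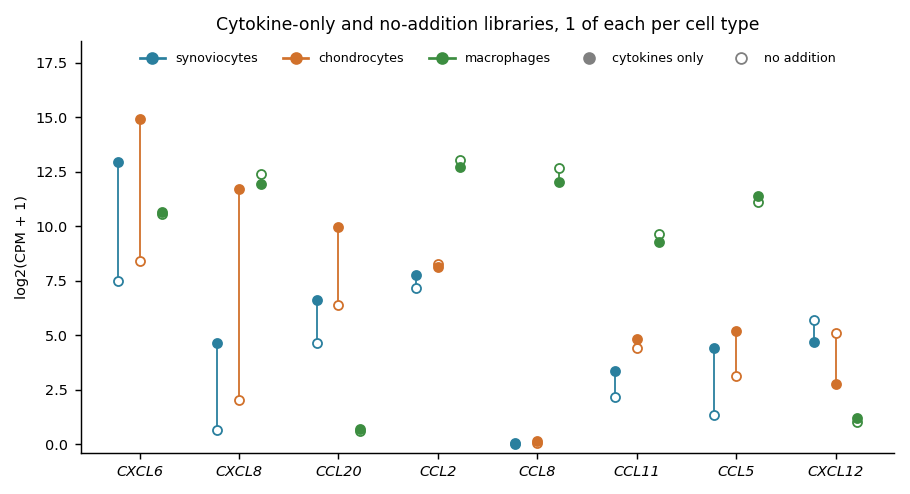
CPM of each chemokine on a log2(CPM + 1) axis in the cytokine-only library and the no-addition library of each joint cell type, 1 library per point. CXCL8 and CXCL6 lie far apart between the libraries in synoviocytes and chondrocytes (in chondrocytes 3279 against 3.04 CPM for CXCL8) and close together in macrophages, and CXCL12 lies lower with the cytokines in synoviocytes and chondrocytes.

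Among chondrocytes with cytokines and MSC-CM, the libraries separated by the donor of the medium. With ORC medium CXCL8 lay at 44.0 CPM (resting), 35.6 CPM (TLR-MSC-CM) and 184 CPM (STING-MSC-CM). With PC medium it lay at 1772, 1169 and 890 CPM and with AG1 medium at 1414, 3374 and 1256 CPM in the same order. All 3 ORC libraries were below all 6 others, and within a medium the mean of the other donors was 5.83 to 63.7 times the ORC level. The cytokine-only library, at 3279 CPM, was near the highest medium library.

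CCL20 and CXCL6 showed the same split. CCL20 lay at 27.7, 40.4 and 56.3 CPM with ORC medium and at 472 to 1001 CPM with the other donors' media, 9.60 to 23.8 times as much within a medium. CXCL6 lay at 7505, 6892 and 10866 CPM with ORC medium and at 17626 to 28524 CPM with the others, 1.76 to 3.69 times as much. The split extended to CCL5 (3.45 to 3.54 times), CCL11 (2.28 to 3.01 times) and CCL2 (1.58 to 1.80 times), all lower with ORC medium. With ORC medium CCL20, CCL2 and CCL11 were below their levels without any addition (82.1, 306 and 20.3 CPM), and CCL2 was so with the other donors' media as well. CCL5, at 6.26 to 8.01 CPM with ORC medium, lay about its level without addition (7.64 CPM). CXCL8 and CXCL6 stayed above theirs (3.04 and 340 CPM).

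CXCL12 was again opposite, at 14.3, 14.6 and 11.3 CPM with ORC medium and 4.92 to 7.29 CPM with the others, 2.07 to 2.31 times higher. Other transcripts moved with these libraries: IL6 lay at 877 to 1260 CPM with ORC medium and 2785 to 4457 CPM with the others, the NF-kB inhibitor gene NFKBIA at 65.9 to 82.8 and 131 to 162 CPM and ICAM1, an adhesion molecule, at 88.8 to 134 and 175 to 220 CPM. Among marker genes, the chondrocyte regulator SOX9 was 4.33 to 7.71 times higher with ORC medium and THY1, a marker of fibroblasts and MSC, 2.96 to 4.87 times higher, while ACAN was 0.868 to 1.87 times the level of the others. The part of these differences in the chemokine result was not tested. The ORC libraries and these marker genes were singled out after their values were seen, so the split has no test.

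CXCL8 and CXCL6 did not have this split in the other cells. The CXCL8 level with ORC medium was 0.901 to 1.07 times the mean of the other donors within a medium in synoviocytes and 1.09 to 1.71 times in macrophages. CXCL6 in synoviocytes lay at 5595, 6831 and 6255 CPM with ORC medium, within the 5495 to 6980 CPM of the other donors. The resting ORC library of synoviocytes was, however, lower for CCL2 (0.586 of the mean of the other donors), CCL20 (0.605), CCL5 (0.673) and IL6 (0.617), and the ORC libraries of the other 2 media were at 0.825 to 1.34 of it for these genes. In macrophages CXCL6 was 1.49 to 2.94 times the mean of the other donors with ORC medium, and CCL2 was highest with ORC medium in each of the 3 media (8621, 6719 and 6592 CPM), the opposite order to the chondrocytes.

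**Figure D3:**
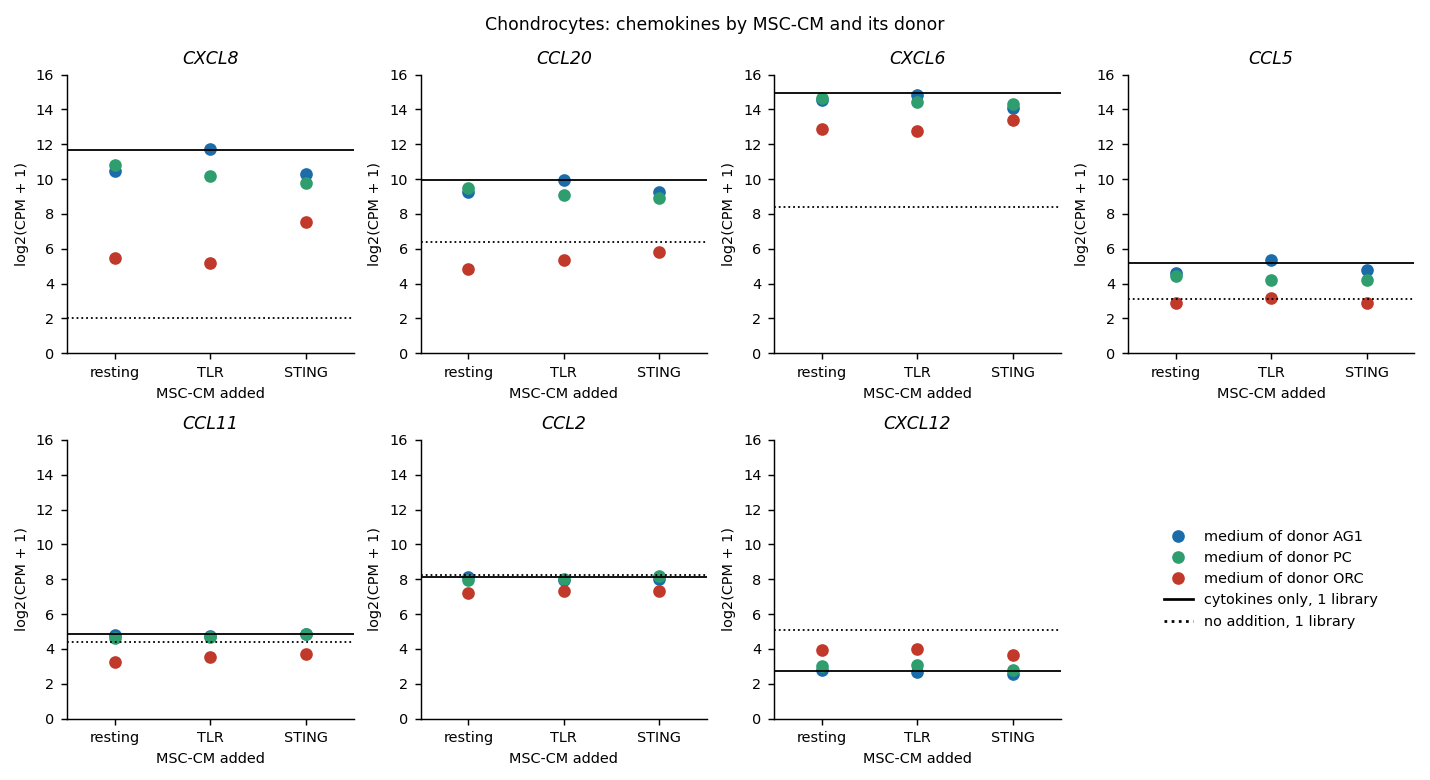
CPM of the chemokines in the chondrocyte libraries on a log2(CPM + 1) axis, by medium, with points coloured by the MSC donor of the medium (PC, AG1, ORC), a solid line at the cytokine-only library and a dotted line at the no-addition library. The 3 ORC libraries lie below the other donors for CXCL8, CCL20, CXCL6, CCL5, CCL11 and CCL2 and above them for CXCL12.

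The study's central question for the joint cells is whether medium of activated MSC changes them relative to resting MSC-CM. The study also assayed secreted cytokines, among them the CXCL8 protein (interleukin-8). For it the study reports lower levels with STING-MSC-CM in chondrocytes and, with a weaker p-value, in synoviocytes. Only transcripts are compared here. All 3 media comparisons of a cell type share libraries (the resting libraries serve both activated media), so their values are set side by side. In none of the 9 comparisons did edgeR call a gene at an adjusted p under 0.05, members included. At an unadjusted p under 0.05 it called 0 members in each, while it called 0.559% (TLR against resting), 0.909% (STING against resting) and 0.811% (STING against TLR) of genes in chondrocytes, 2.13%, 4.76% and 6.6% in macrophages and 10%, 7.6% and 2.02% in synoviocytes. DESeq2 also called 0 members at an adjusted p under 0.05, and at an unadjusted p it called 1, CCL2 in macrophages with TLR-MSC-CM (-0.50), beside 2.02% of all genes. These tests had 3 libraries a group, where the exact permutation test cannot go below p = 0.1.

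Synoviocytes gave the narrowest limits. The log2 difference of CXCL6 with TLR-MSC-CM was 0.09 (95% interval -0.12 to 0.31) and with STING-MSC-CM 0.03 (-0.19 to 0.24), and CXCL12 had 0.04 (-0.17 to 0.26) and -0.03 (-0.25 to 0.19). For these members a doubling lies outside the interval. CXCL8 had -0.14 (-0.48 to 0.20) with TLR-MSC-CM, from 13.3, 14.4 and 15.7 CPM against 12.6, 16.5 and 18.4 CPM, and -0.23 (-0.57 to 0.11) with STING-MSC-CM, from 11.2, 12.8 and 17.1 CPM. For CCL20, CCL2 and CCL5 the 95% intervals of both media lay between -0.31 and 0.67. With the MSC donor as a block, CCL20 (0.32) had an unadjusted p under 0.05 with TLR-MSC-CM, beside 7.87% of all genes, and did not pass the adjusted threshold.

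The intervals were wider in chondrocytes. CXCL8 had a log2 difference of 0.50 (95% interval -2.67 to 3.68) with TLR-MSC-CM and -0.47 (-3.64 to 2.71) with STING-MSC-CM. CXCL6 had 0.03 (-1.23 to 1.28) and -0.20 (-1.46 to 1.05). With the MSC donor as a block the intervals were narrower, at 0.21 (-0.85 to 1.27) and 0.42 (-0.70 to 1.53) for CXCL8, where the sign with STING-MSC-CM changed, and at -0.005 (-0.37 to 0.36) and -0.03 (-0.40 to 0.34) for CXCL6. In that paired fit 2 members had an unadjusted p under 0.05 for STING-MSC-CM against resting medium, CCL11 (0.26) and CXCL12 (-0.28), beside 3.92% of all genes, and 2 for STING-MSC-CM against TLR-MSC-CM, CCL5 (-0.32) and CXCL12 (-0.27), beside 4.18%. None passed the adjusted threshold.

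With the ORC media left out, 3 members had an unadjusted p under 0.05 for STING-MSC-CM against TLR-MSC-CM, beside 2.94% of all genes: CXCL8 at -1.08, CCL20 at -0.52 and CXCL6 at -0.41, none of them at an adjusted p under 0.05. For STING-MSC-CM against resting medium it was 1, CXCL6 (-0.36), beside 2.49% of all genes. That leaves 2 donors a group.

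In macrophages the monocyte and neutrophil chemokines were mostly lower with activated media in each donor pair. CCL2 lay at 3731 (AG1), 4607 (PC) and 6719 CPM (ORC) with TLR-MSC-CM and at 4455, 4777 and 6592 CPM with STING-MSC-CM, against 6846, 5712 and 8621 CPM with resting medium. Each activated library was below the resting library of its donor, although the groups overlapped. The log2 difference was -0.49 (SE 0.25, edgeR adjusted p = 0.998) for TLR-MSC-CM and -0.42 (SE 0.25, adjusted p = 0.907) for STING-MSC-CM. With TLR-MSC-CM 5 of 8 members were lower in all 3 donors, against 14.6% of all genes, and with STING-MSC-CM 4 of 8, against 18.7%.

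With the MSC donor as a block, 4 members in macrophages had an unadjusted p under 0.05 for TLR-MSC-CM, CCL2 (-0.51), CXCL6 (-0.74), CXCL8 (-0.35) and CCL11 (-0.27), beside 6.26% of all genes. For STING-MSC-CM these were CCL2 (-0.42), CCL11 (-0.30) and CCL8 (-0.25), beside 13.5% of all genes. None of them passed the adjusted threshold, the lowest being CCL2 with STING-MSC-CM (edgeR adjusted p = 0.111). T cell markers made up 250 to 423 CPM of these libraries, and their part in the CCL5 level, which T cells also express, was not tested.

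**Figure D4:**
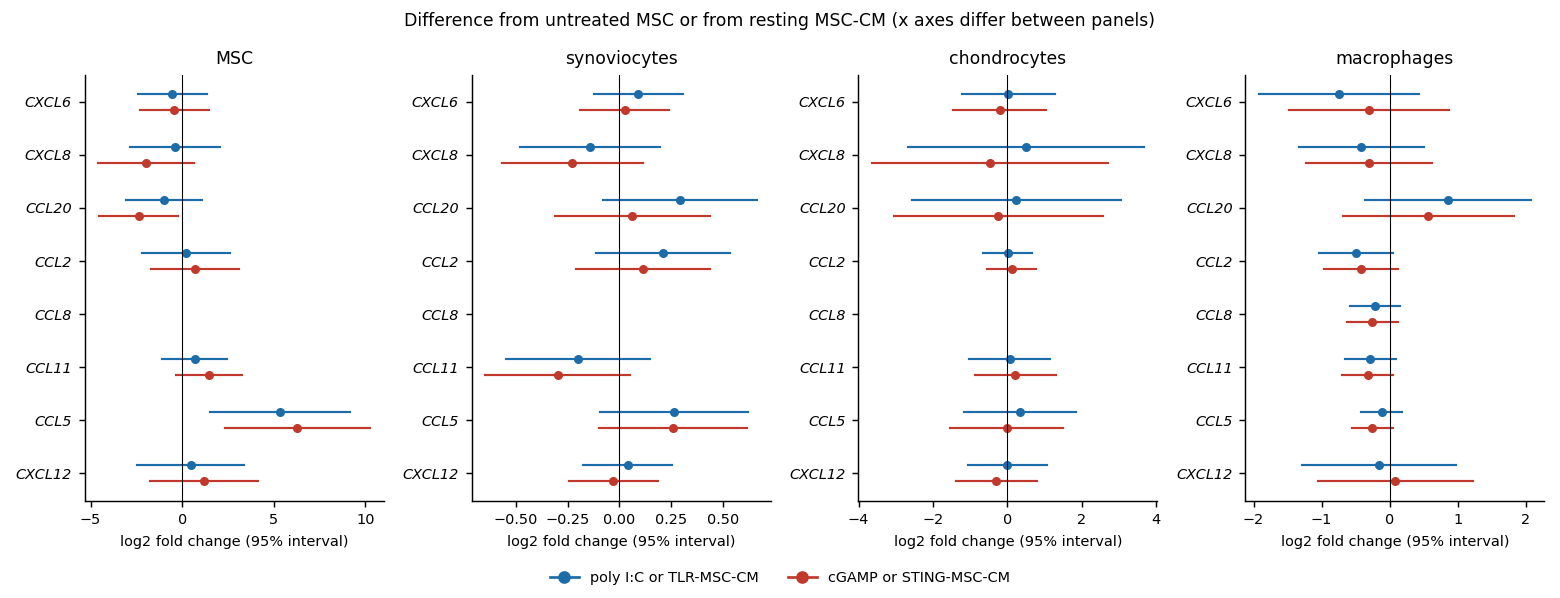
Log2 fold change of each chemokine against the untreated or resting group of its cell type, for the TLR3 and STING comparisons in MSC and the 3 joint cell types. Lines are 95% intervals derived from the F statistic of the edgeR test. CCL8 is shown in macrophages only and the horizontal axes differ between panels. Every interval shown for the joint cells includes 0, and in MSC the interval of CCL5 lies above 0 in both comparisons and that of CCL20 below 0 with the STING agonist.

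In the MSC themselves, CCL5, a gene induced by interferon regulatory factors, differed most from the untreated cells. It lay at 0.738 (PC), 0.729 (99) and 0.146 CPM (92) in untreated MSC, at 36.3, 27.1 and 0.166 CPM with poly I:C and at 45.4, 72.0 and 5.50 CPM with 2′3′-cGAMP, in the same donor order. All 3 libraries with the STING agonist were above all 3 untreated libraries, and donor 92 held 6 counts with poly I:C against 7 untreated. The log2 difference was 5.34 for poly I:C (SE 1.67) and 6.28 for the STING agonist (SE 1.74), with an edgeR adjusted p = 1.00 in both. For the STING agonist the exact two-sided permutation test gave p = 0.1, the smallest it can give here.

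The call of CCL5 differed between tests. DESeq2 called CCL5 alone among the members in both comparisons, with poly I:C (adjusted p = 0.0105) beside 0.323% of all genes and with the STING agonist (adjusted p = 2.54e-04) beside 0.625%. Without donor 92, whose poly I:C library had the low MX1 level, edgeR called CCL5 for poly I:C at 5.43 (adjusted p = 0.0238) and for the STING agonist at 6.33 (adjusted p = 0.0173). With the MSC donor as a block and donor 92 left out, poly I:C had CCL5 as the single member called (adjusted p = 3.81e-05), beside 1.16% of all genes.

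With the STING agonist, 3 further members lay above the untreated level within each donor. CCL2 lay at 587 CPM (PC), 685 CPM (99) and 77.5 CPM (92) with it, each above that donor's untreated 399, 397 and 46.2 CPM, and CCL11 at 32.7, 39.7 and 6.27 CPM against 13.3, 11.3 and 4.03 CPM. CXCL12 lay at 17.3, 35.4 and 1.57 CPM against 5.59, 16.7 and 1.34 CPM. These 3 and CCL5 were higher in all 3 donors, 4 of 7 members against 12.4% of all genes.

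CCL20 and CXCL8 went the other way. CCL20 lay at 0.917 CPM (PC), 1.501 CPM (99) and 0.200 CPM (92) with the STING agonist, against 2.21, 9.95 and 1.55 CPM untreated, and its groups did not overlap. CXCL8 had 9, 9 and 46 counts untreated and 5, 0 and 7 counts with the STING agonist, close to the floor of 3 counts. These 2 were lower in all 3 donors, against 14.7% of all genes, and with CCL5 they made 3 members without overlap, against 5.8% of all genes. At an unadjusted p under 0.05, edgeR called CCL5 and CCL20 (-2.37, SE 0.95), 2 of 7 members, beside 2.1% of all genes, and called 1, CCL5, for poly I:C, beside 1.15%.

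The donor carried much of the spread of MSC levels, so the paired fit changed the picture. With the MSC donor as a block, 6 of 7 members had an unadjusted p under 0.05 for the STING agonist, beside 9.48% of all genes: CCL5 at 6.38 (edgeR adjusted p = 0.0781), CCL2 at 0.72, CCL11 at 1.30 and CCL20 at -2.18 (adjusted p = 0.116 each), CXCL12 at 1.04 (adjusted p = 0.216) and CXCL8 at -1.99 (adjusted p = 0.445). None of them passed the adjusted threshold. With donor 92 left out as well, 4 were called at an adjusted p under 0.05, beside 2.05% of all genes: CCL5 (adjusted p = 1.29e-05), CCL11 at 1.58 (adjusted p = 0.00778), CXCL12 at 1.34 (adjusted p = 0.0219) and CCL20 at -2.07 (adjusted p = 0.0289). CXCL6 was not among them, with a difference of -0.42 (95% interval -2.28 to 1.44) without the block.

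For poly I:C the same paired fit gave CCL5 and CCL11 (0.58) an unadjusted p under 0.05, beside 3.2% of all genes. For the STING agonist against poly I:C, 6 of 7 members had an unadjusted p under 0.05 with the block, beside 2.58% of all genes, and 0 without it, beside 0.242%. Without donor 92 the paired fit again gave 6 of 7, beside 2.92% of all genes, with CXCL6 (1.21) in place of CXCL8, and none of these passed the adjusted threshold. The CPG libraries gave 0 members at an unadjusted p under 0.05, beside 0.305% of all genes, and with the block 3, CCL2 (-0.28), CCL11 (-0.53) and CXCL12 (-0.70), beside 1.43%. CCL5 stayed at 0.172 to 0.744 CPM in the CPG libraries, the range of the untreated cells. Of 12 macrophage markers, 1, CD68, had a mean of at least 1 CPM over the MSC libraries. CSF1R, PTPRC, MRC1, CD163, AIF1, CYBB, MSR1, SPI1 and TYROBP had means below 0.1 CPM. Of the markers tested in MSC, CD68 alone had an unadjusted edgeR p under 0.05 with either agonist, and CD68 did not pass the adjusted threshold. It lay at 12.01 to 15.1 CPM untreated, at 9.74 (92), 124 (99) and 139 CPM (PC) with poly I:C and at 50.8 to 327 CPM with the STING agonist, and its part in the chemokine levels was not tested.

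**Figure D5:**
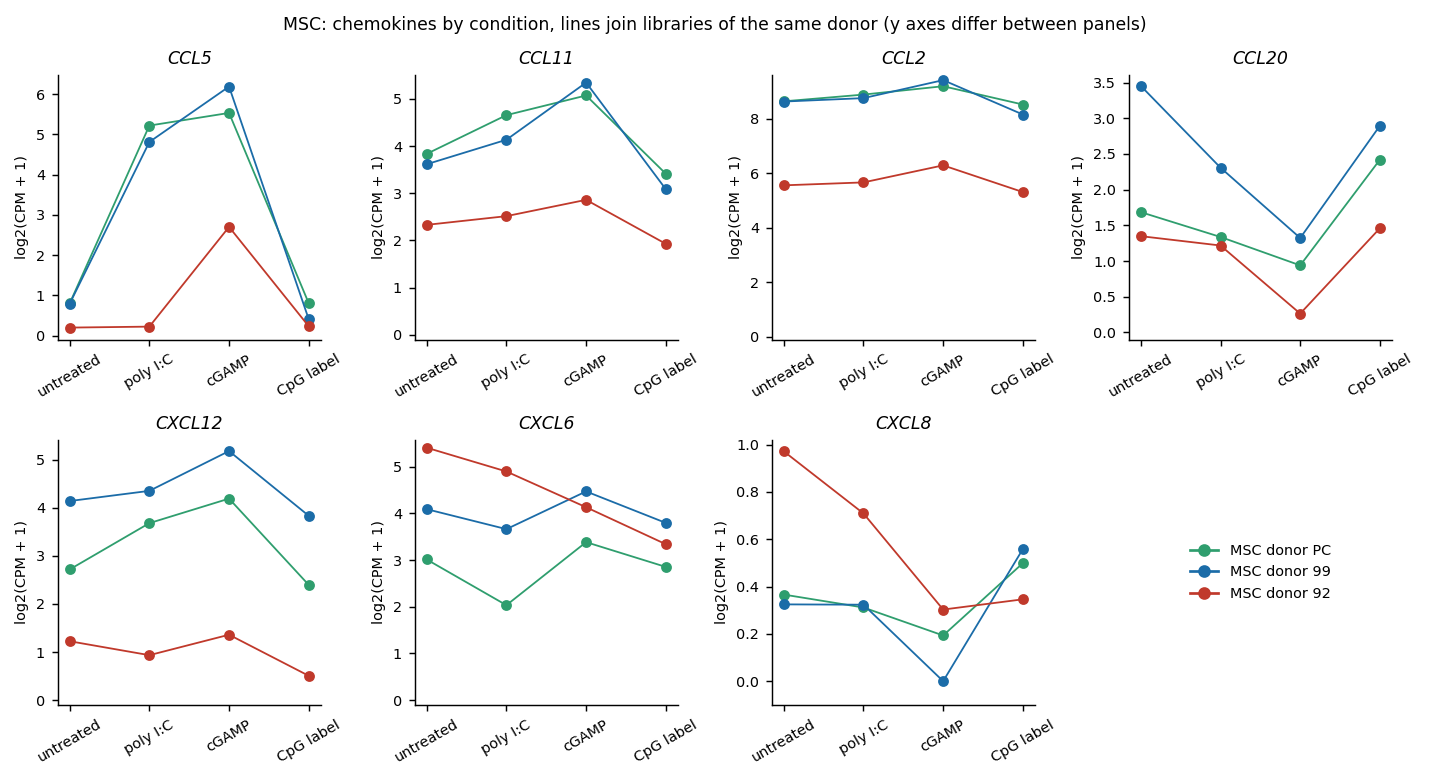
CPM of the chemokines in the 12 MSC libraries on a log2(CPM + 1) axis, by condition, with lines joining the libraries of 1 donor (PC, 99, 92); the vertical axes differ between panels. CCL5 is higher in all 3 donors with the STING agonist and in donors PC and 99 with poly I:C, and CCL20 is lower in all 3 donors with the STING agonist.

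Whether a medium acted differently in different joint cells was tested as an interaction. For TLR-MSC-CM against resting medium edgeR gave 0 members at an unadjusted p under 0.05 between chondrocytes and synoviocytes, macrophages and synoviocytes, and macrophages and chondrocytes, beside 1.72%, 3.99% and 2.64% of all genes. For STING-MSC-CM it again gave 0 members, beside 1.74%, 4.38% and 3.59%. No gene passed an adjusted p under 0.05 in these edgeR fits, and DESeq2 called 1 to 4 genes for STING-MSC-CM, none of them a member. Without the ORC media, edgeR gave 1, 3 and 2 members at an unadjusted p under 0.05 for TLR-MSC-CM in the same order, beside 1.33%, 3.8% and 3.99% of all genes, and 1, 1 and 2 for STING-MSC-CM, beside 1.38%, 3.42% and 4%. CCL8, which rested on 0 to 10 counts in synoviocytes and chondrocytes, is set aside here. With TLR-MSC-CM the others were CCL2 between macrophages and synoviocytes (-0.57) and macrophages and chondrocytes (-0.56), and CXCL6 (-1.25 and -1.28). With STING-MSC-CM they were CCL2 (-0.54) and CCL11 (-0.49) between macrophages and chondrocytes. None had an adjusted p under 0.05. CCL11 with STING-MSC-CM was lower in all 3 donors in macrophages and higher in all 3 in chondrocytes, and the difference of -0.54 (SE 0.48) had an edgeR adjusted p = 1.00.

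Across the joint cell libraries CXCL8 and CXCL6 varied together most closely in chondrocytes, as a description only, since the libraries share cells, cytokines and media. Over 33 libraries, with the mean of each cell type taken out, their log2 levels had a Pearson r of 0.86, CCL20 and CXCL8 had 0.85, and CXCL12 and CXCL8 had -0.92. Within the 9 medium libraries of chondrocytes alone CXCL8 and CXCL6 had 0.99 and CXCL8 and CXCL12 -0.95, where the ORC libraries form one end. In the 9 medium libraries of synoviocytes the same pairs had 0.56 and -0.24, with 0.29 for CCL20 and CXCL8, and in those of macrophages CXCL8 and CXCL6 had 0.90.

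Among 12455 genes, those with the levels most like a member by this measure were IER3 (0.98) and TBX3 (0.97) for CXCL8, NFKB1 (0.97) for CCL20, CXCL1 (0.97) for CXCL6 and BMP4 (0.91) for CCL5. For the others they were COL6A3 (0.91) for CXCL12, HSPB8 (0.86) for CCL11, NPC2 (0.85) for CCL2 and GPR65 (0.76) for CCL8. CXCL1, a close relative of CXCL6, had 5.55 to 8.34% as many counts as CXCL6 in synoviocytes and 92.6 to 202% in macrophages, and how reads shared by the pair were assigned was not tested.

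Transcripts of the members' receptors were mostly those of macrophages. CCR1, a receptor of CCL5, lay at 353 to 505 CPM in macrophages and CCR2, the receptor of CCL2, at 1.94 to 5.08 CPM. CXCR4, the receptor of CXCL12, lay at 14.7 to 35.1 CPM in macrophages and at most 0.96 CPM in chondrocytes. ACKR3, which binds and removes CXCL12, was present in every cell type, at 510 to 687 CPM in synoviocytes, 226 to 496 CPM in chondrocytes, 137 to 260 CPM in macrophages and 87.4 to 588 CPM in MSC. With resting MSC-CM it was lower in chondrocytes than in synoviocytes by a log2 difference of -0.77 (SE 0.21, edgeR adjusted p = 0.0262). CXCR1 and CXCR2, the receptors of CXCL8 and CXCL6, were not analysed here.

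Beside the 18.1% of all genes called between chondrocytes and synoviocytes and the 71.6% and 71.5% called between macrophages and these cells, the rest of the pathway gave the following counts. In all 17 other chemokines were tested, of which 2 were higher and 0 lower in chondrocytes than in synoviocytes, CCL26 (1.63) and CXCL14 (1.37). In macrophages 13 were higher and 0 lower than in synoviocytes, and 11 were higher and 1 lower than in chondrocytes. Of 21 chemokine receptors tested, 0 were higher and 2 lower in chondrocytes than in synoviocytes, ACKR3 among them, and 16 were higher and 3 lower in macrophages than in synoviocytes. Of 25 NF-kB pathway genes 5 were higher and 2 lower in chondrocytes than in synoviocytes, and of 13 genes of the response to IL-1β and TNF-α 7 were higher and 2 lower. Of 7 genes that process or clear chemokines 2 were higher and 2 lower, and of 9 interferon genes 0 were higher and 2 lower. None of these lists had a gene called in a medium or agonist comparison by edgeR at an adjusted p under 0.05.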

How the data were processed

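Bulk RNA sequencing of 12 MSC and 33 joint cell libraries was used, grouped by the sample labels. The authors trimmed reads (Cutadapt 1.12), aligned them with STAR to EquCab3.0 and counted them per gene with HTSeq 0.11.0 on Ensembl 108, and deposited raw counts of protein-coding genes in 2 tables. The counting strand is not given in the sources used here, and counts from 1000000 upward, met by CXCL6 in 2 chondrocyte libraries, were written to 3 significant digits. From these counts, CPM used TMM scaling, separately in each table. A gene needed a summed count of 10 across the fitted libraries, and was then tested with edgeR 4.0.16 (glmQLFit, glmQLFTest; R 4.3.3, limma 3.58.1) with Benjamini-Hochberg adjustment over all genes, within each cell type for medium and agonist comparisons and jointly for cell types and interactions. DESeq2 1.42.0, other scalings and filters, a donor block and leaving out libraries were alternatives. Single genes were also compared by exact two-sided permutation tests. The fits were tested on simulated counts with a single small spread for all genes and no donor effect, so this does not show their power in these data.

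The same donor labels pair libraries: deviations from group means of same-donor libraries had a median correlation of 0.83 in MSC, 0.72 in chondrocytes and 0.51 in macrophages, but 0.0882 in synoviocytes. The members and gene lists were chosen with earlier results of these data known. The genes named are the members, up to 3 genes most like each by Pearson r of log2(CPM + 1), up to 3 called genes per list with the smallest p, the members' receptors (some are not reported here), and IL6, NFKBIA, ICAM1, MX1 and ISG15 as checks. CX3CL1, CXCR1 and CXCR2 were not analysed here. Intervals on counts cover counting error only. No sequence of the files' build was used here, and none is printed.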

Additional observations from a re-analysis of the deposited data

How the results depend on the processing

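Of 910 recomputed values of 79 member fold changes, 837 kept their direction and side of the threshold, 17 lost and 12 gained a call, and 44 changed sign, while 0 of 104 group levels moved by over 1 SD under another scaling. The member count between chondrocytes and synoviocytes was 2 with the replicate block and 1 to 6 with a library left out (4 in the main test). For MSC with poly I:C (0 in the main test) it was 1 with DESeq2, 1 without donor 92 and 1 with the block and donor 92 left out, and with the STING agonist 1, 1 and 4. The replicate block changed no other member call, but turned the sign of CXCL8 in chondrocytes with STING-MSC-CM (0.42) and for STING-MSC-CM against TLR-MSC-CM (0.20), and of CXCL6 with TLR-MSC-CM (-0.0045). CXCL6 in MSC with the STING agonist became 0.42 without donor 92, with or without the block. The other sign changes came from leaving out 1 library, none at an adjusted p under 0.05. The range was -0.14 to 0.51 for CCL11 and -0.73 to 0.20 for CXCL12 with STING-MSC-CM in chondrocytes, -0.85 to 0.40 for CCL5 and -0.74 to 0.22 for CXCL12 between STING-MSC-CM and TLR-MSC-CM in chondrocytes, -0.80 to 0.22 for CCL2 and -1.75 to 0.80 for CXCL12 with CPG in MSC, and -0.012 to 0.995 for CCL2 and -0.19 to 1.52 for CXCL12 between the agonists in MSC. In chondrocytes CXCL6 ranged from -0.38 to 0.43 and CXCL8 from -0.85 to 1.08 with TLR-MSC-CM, from -0.58 to 0.061 and -1.03 to 0.093 with STING-MSC-CM, and between the activated media from -0.63 to 0.18 and -1.54 to 0.38, with CCL20 from -1.03 to 0.37. In synoviocytes CCL2 ranged from -0.00087 to 0.33 and CXCL12 from -0.033 to 0.16 with TLR-MSC-CM, and with STING-MSC-CM CCL2 from -0.097 to 0.24, CCL20 from -0.15 to 0.22, CXCL12 from -0.070 to 0.034 and CXCL6 from -0.060 to 0.11. CCL5 between chondrocytes and synoviocytes ranged from -0.061 to 0.64, and CXCL6 in MSC from -0.84 to 0.44 with the STING agonist and -0.37 to 1.09 between the agonists. The cause was not tested.

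Over all genes the main test called 0 where other settings called more. For MSC with poly I:C, DESeq2 called 48, leaving out donor 92 gave 25 and with the block 167. For MSC with the STING agonist these were 93, 40 and 297, and the block alone gave 2. DESeq2 called 1 gene between the agonists in MSC, 9 in macrophages with STING-MSC-CM (80 with the block) and 31 for STING-MSC-CM against TLR-MSC-CM there (336 with the block), 2 in synoviocytes with TLR-MSC-CM (1 with no filter), and 1, 4 and 2 for the STING interactions, and the block gave 2 in chondrocytes with STING-MSC-CM. Between chondrocytes and synoviocytes a library left out moved 2831 genes to 1781 to 3759. Of 128 member comparisons, 23 reached the smallest exact p of 0.1. Macrophages against synoviocytes and against chondrocytes gave 8 each, where edgeR called 71.6% and 71.5% of all genes. Chondrocytes against synoviocytes gave 3, where 37.5% of all genes had groups without overlap. In MSC the STING agonist gave 3 against untreated cells, beside 5.8% of all genes without overlap, and 1 against poly I:C, CXCL8 near the floor. The medium comparisons in joint cells gave 0. Depth limits CCL8 outside macrophages, CXCL8 in MSC and CCL20 in macrophages. The alternatives without donor 92 and without donor ORC were chosen after seeing the data.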

Other observations

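Interferon-induced genes were followed as a check of the agonists in the MSC, and with all 3 donors none passed an adjusted p under 0.05 in edgeR. Of 9 interferon genes checked, 8 had an unadjusted edgeR p under 0.05 and were higher with poly I:C, beside 1.15% of all genes, and 8 with the STING agonist, beside 2.1%. Without donor 92 these were 7 of 9, beside 2.06% of all genes for poly I:C, and 7 of 9, beside 3.21% for the STING agonist, with 3 past the adjusted threshold in each. ISG15, a ubiquitin-like protein induced by interferon, lay at 7.68 to 14.4 CPM untreated, at 1375 and 1988 CPM with poly I:C in donors 99 and PC and 9.27 CPM in donor 92, and at 723 to 2342 CPM with the STING agonist. In 1 chondrocyte library, with STING-MSC-CM of donor AG1, MX1 lay at 37.2 CPM, against 1.02 to 3.45 CPM in the other 10 chondrocyte libraries. This library was singled out after its values were seen.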
